A study of Zea mays with 7 samples.

Results

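A group of 58 genes, out of 110451 in the table, was raised in 3 of the 4 pools of *Bif3/Bif3* ear primordia and did not exceed the highest wild-type pool in replicate 3. The rule used CPM, the count of a gene scaled to the total count of its pool. It asked for at least 1.5 times the highest wild-type pool and at least 1 CPM in each of *Bif3/Bif3* replicates 1, 2 and 4, and for replicate 3 to be at or below the highest wild-type pool. The members were thus chosen on the measured values of all 7 pools, and every difference between the genotypes or among the *Bif3/Bif3* pools that follows from the rule is a description without a test.

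*Barren inflorescence3* (*Bif3*) is a dominant maize mutant with a tandem duplication of *ZmWUS1*, a maize counterpart of the Arabidopsis stem cell gene *WUSCHEL*. The compared groups were ear primordia of 3–4 mm from field-grown plants in the B73 background, 4 pools of the mutant and 3 pools of wild-type siblings, with 3 ears in each pool. The labels name the mutants by their appearance and give no zygosity, and the paper's Methods state that they were homozygous for *Bif3-ref*, the only allele available, which was introgressed into B73. Age in days was given in neither source, and no treatment was applied to either group.

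WUSCHEL is a homeodomain transcription factor that keeps the stem cells of a meristem dividing, and the secreted CLAVATA3 peptide limits it through leucine-rich repeat receptors. A dissected ear primordium holds the inflorescence meristem, the axillary meristems on its flanks, suppressed bracts, the ground tissue and the first vascular strands. In such a bulk sample, fewer cells of a type and less RNA per cell cannot be told apart.

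Total counts were between 41720131 and 56057512 per wild-type pool and between 42481699 and 50824983 per *Bif3/Bif3* pool, and replicate 3 had 44702899. CPM is not corrected for gene length, so levels are compared between pools and not between genes. Replicates of a genotype differed beyond counting error for between 35.4% and 57.2% of the genes, so each library was counted as its own sample. The labels do not say whether pools came from separate plots, so the spread between pools may be partly technical. The label of replicate 3 was checked with *ZmWUS1* (*GRMZM2G047448*), which had 3.83 CPM there against 4.47, 5.25 and 12.5 CPM in replicates 1, 2 and 4 and 0.551, 0.321 and 0.311 CPM in the wild-type pools. *ZmWUS1* was thus above every wild-type pool in replicate 3 as well. *KN1*, the homeobox gene that marks meristem and ground tissue, had 498, 414 and 470.3 CPM in wild-type, 487 CPM in replicate 3 and 567, 552 and 603 CPM in replicates 1, 2 and 4. The labelled tissue was thus present, and *KN1* was within the wild-type range in replicate 3 and above it in the other *Bif3/Bif3* pools.

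The 58 members had a median of 2.96 times the wild-type mean in the mean of replicates 1, 2 and 4, with a range from 1.63 to 22.0 times. In replicate 3 they had a median of 1.17 times the wild-type mean, with a range from 0.626 to 1.76 times. The mean of the raised pools was at least 2 times the wild-type mean for 46 members and at least 3 times for 29. Replicate 3 lay within 25% of the wild-type mean for 34 members, above that range for 21 and below it for 3. Summed over the 58 genes, the wild-type pools had 165, 170.3 and 137 CPM, replicate 3 had 178 CPM, and replicates 1, 2 and 4 had 384, 500.0 and 437 CPM.

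**Figure D1:**
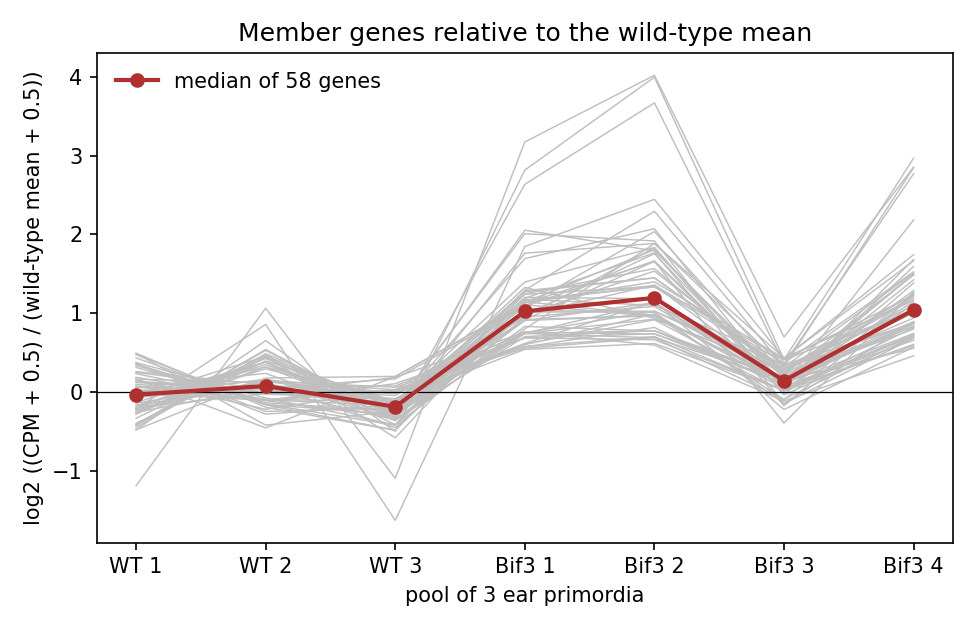
Level of each of the 58 genes in each pool relative to its own wild-type mean, as log2 of the ratio with 0.5 CPM added to both values; a grey line joins the values of 1 gene and the red points are medians over the genes. The median was 0.15 in *Bif3/Bif3* replicate 3 and between 1.02 and 1.20 in the other *Bif3/Bif3* pools, as the rule required.

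Most members were genes of low expression. The mean over all pools was under 5 CPM for 41 of them and at least 10 CPM for 11, and the median was 2.27 CPM. Over the 21640 genes with a mean of at least 1 CPM, a limit not set for the members, the median was 19.9 CPM. Over the 215 genes raised in all 4 *Bif3/Bif3* pools it was 4.57 CPM, so a low level was not particular to the members. In the raised pools the members had between 44 and 2911 counts, and in replicate 3 between 6 and 837 counts. The rule set the distance of replicate 3 from the raised pools, so nothing is read from a test of that distance. The lowest count of a member in a wild-type pool was 4, so every member was detected in every wild-type pool.

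The members near the limits of the rule show how gradual it was. *GRMZM2G173280*, annotated as a remorin, a plasma membrane protein family of plants, was just inside, with its lowest raised pool at 1.502 times the highest wild-type pool. *GRMZM2G083725*, at 1.49 times, was just outside, as was *ZmRR2* (*GRMZM2G392101*), a type-A response regulator of cytokinin signalling, at 1.48 times and with replicate 3 at 0.978 times the highest wild-type pool. On the side of replicate 3, *GRMZM2G002147*, with 0.999 times, was the last inside. *AC233893.1_FG006*, annotated as a leucine-rich repeat receptor-like kinase, was the first outside, with 1.0015 times.

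For comparison, the same rule was applied with each of the other *Bif3/Bif3* pools as the low pool. In all, 608 genes were raised in replicates 1, 2 and 4. In replicate 3, 58 of these (9.54%) were at or below the highest wild-type pool, 319 lay between 1 and 1.5 times it, and 231 (38.0%) were at 1.5 times or more. Of the 252 genes raised in replicates 2, 3 and 4, replicate 1 was at or below the highest wild-type pool for 3 (1.19%). For replicate 2 it was 3 of 231 genes (1.30%), and for replicate 4 it was 2 of 243 genes (0.823%). These 3 pools reached 1.5 times the highest wild-type pool for between 88.5% and 94.8% of the genes raised in the others. The sets share the wild-type pools and most of the mutant pools, so the counts are set side by side without a test. The sets for replicates 1, 2 and 4 also required replicate 3 to be raised, which left fewer genes. Their shares are thus partly set by that requirement and are not on equal terms with those of replicate 3.

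**Figure D2:**
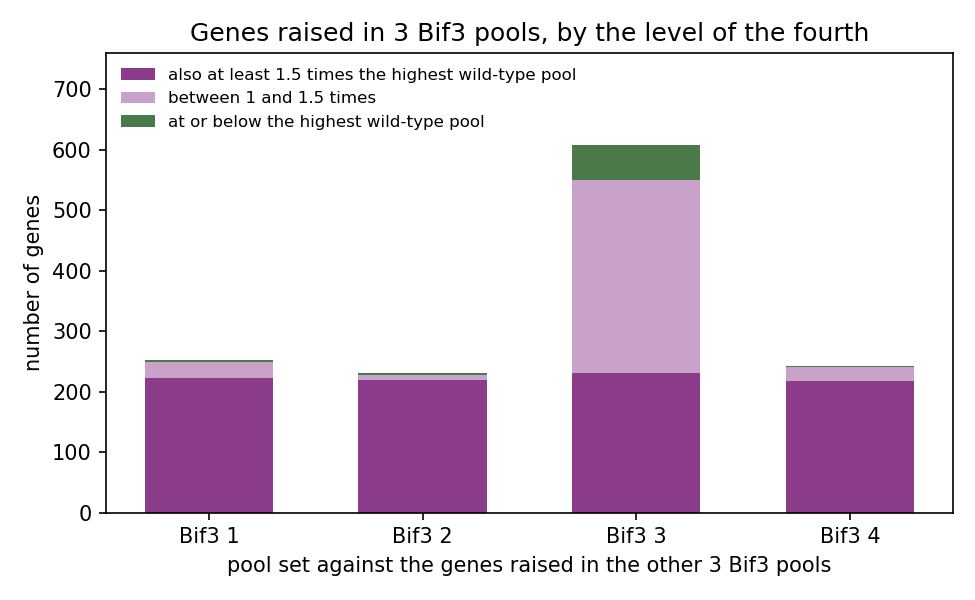
Number of genes at 1.5 times or more of the highest wild-type pool and at least 1 CPM in 3 *Bif3/Bif3* pools, split by the level of the pool that is named on the x axis. Replicate 3 had 58 genes at or below the highest wild-type pool and 319 between 1 and 1.5 times it, where each of the other pools had at most 3 and 26.

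The same limits were applied to lowered genes, of which there were fewer. Of 53 genes with at least 1 CPM in each wild-type pool that were 1.5 times or more below the lowest wild-type pool in replicates 1, 2 and 4, none had returned to the wild-type level in replicate 3. For replicate 1 it was 4 of 47 genes, for replicate 2 it was 1 of 38, and for replicate 4 none of 43.

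A wider measure was the place of a pool among genes called without it. For each *Bif3/Bif3* pool, edgeR's quasi-likelihood test was run on the other pools, genes were called at p under 0.05, a Benjamini-Hochberg adjusted p under 0.1 and a fold change over 1.5, and the level of the left-out pool was placed on a scale where 0 is the wild-type mean and 1 the mean of the other 3 *Bif3/Bif3* pools. Without replicate 3, 1817 genes were called higher in *Bif3/Bif3*, and replicate 3 had a median position of 0.494 among them (quartiles 0.309 and 0.675). The medians were 0.951 for replicate 1 over 1018 genes, 1.14 for replicate 2 over 713 genes and 1.06 for replicate 4 over 975 genes. For these pools the mean set to 1 included replicate 3, so the scale was not the same as that for replicate 3. Replicate 3 was at or below the highest wild-type pool for 382 of the 1817 genes (21.0%), where the other pools had between 1.12% and 3.18%. These genes included 57 of the 58 members, whose place in replicate 3 was set by the rule. With the members left out, the median position of replicate 3 was 0.503 over 1760 genes, and 325 of them (18.5%) were at or below the highest wild-type pool. Among the genes called lower, the median of replicate 3 was 0.736 over 269 genes, closer to that of replicate 4 (0.789 over 191 genes) than to replicates 1 and 2 (0.894 and 1.09). Replicate 3 was at or above the lowest wild-type pool for 42 of the 269 lower genes (15.6%), where replicates 1, 2 and 4 had 8.45%, 1.75% and 10.5%, so part of the lowered genes was at the wild-type level in replicate 3 as well. Positions are a description across genes, and genes of the same pools are not independent.

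**Figure D3:**
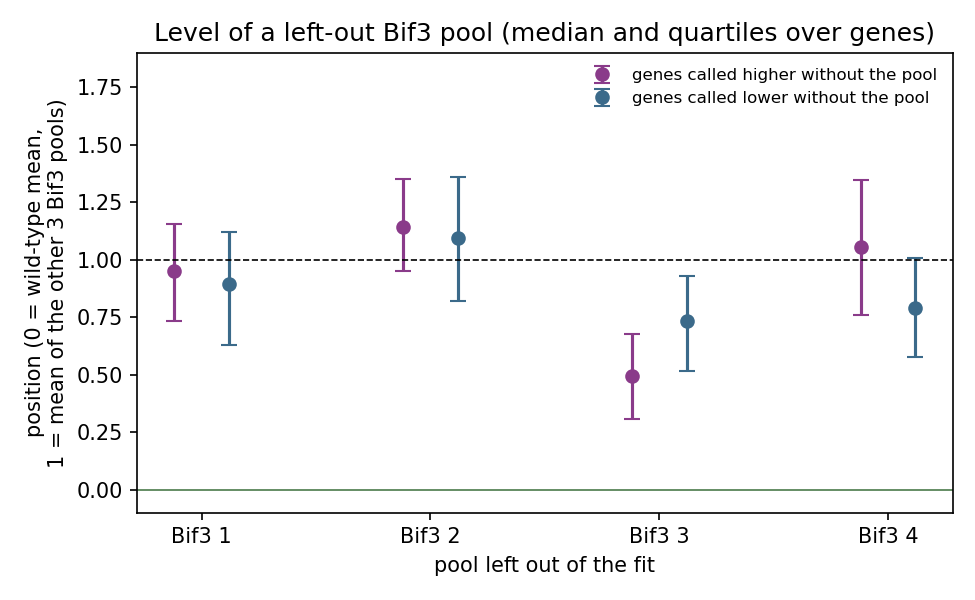
Position of each *Bif3/Bif3* pool among the genes called without it, with 0 for the wild-type mean and 1 for the mean of the other 3 *Bif3/Bif3* pools; points are medians over genes and bars run between the quartiles. For the higher genes, replicate 3 had 0.494 and the other pools were between 0.951 and 1.14.

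Over the 21640 genes with a mean of at least 1 CPM, the median absolute log2 difference from the wild-type mean was 0.12 for replicate 3 and between 0.18 and 0.19 for the other *Bif3/Bif3* pools. Each wild-type pool was set against the mean of the other wild-type pools, and differed from it by between 0.12 and 0.16. The distance of replicate 3 from wild-type was thus no larger than those of the wild-type pools. Their reference was a mean of fewer pools, so the distances are not on equal terms. The distance of replicate 3 from the mean of the other *Bif3/Bif3* pools was 0.11.

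In edgeR's quasi-likelihood test of all 7 pools, 34 of the 58 members were past that threshold and higher in *Bif3/Bif3*, where the background was 3.39% of 40650 genes. Without replicate 3 it was 57 of the 58, where the background was 4.54%. The rule used this contrast, and nothing is read from the counts. No member was past it and lower, where the background was 0.598%. The fitted log2 fold changes of the members lay between 0.53 and 3.98 (median 1.29), and between 0.66 and 4.34 (median 1.51) without replicate 3. The number of members called changed when a pool was left out. Leaving out a wild-type pool gave 15 (replicate 1), 23 (replicate 2) and 0 (replicate 3), and the numbers over all genes are given below only as a range. Leaving out a *Bif3/Bif3* pool gave 13 (replicate 1), 4 (replicate 2) and 12 (replicate 4). Over all genes, these 3 fits called 1018, 713 and 975 higher, against 1380 with all 7 pools. The change is therefore not read as a property of the members.

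Names of members came from the annotation in the paper, which was at hand only for genes it lists as changed, and named 30 of the 58. The 28 others are therefore not a class of their own, and roles are given for the named members only. Among these, a membrane transporter had the largest fold change. *PHOS3* (*GRMZM5G872499*), whose closest Arabidopsis gene is *PHO1*, an exporter that loads phosphate into the xylem, had 24.0, 43.6 and 19.2 CPM in replicates 1, 2 and 4 and 3.91 CPM in replicate 3. In the wild-type pools *PHOS3* had 0.695, 5.19 and 0.777 CPM. Wild-type replicate 2 was thus far above the other wild-type pools and set the limit below which replicate 3 fell, although replicate 3 was above wild-type replicates 1 and 3. *GRMZM5G815128* and *GRMZM5G851655*, both without a name, were likewise highest in *Bif3/Bif3* replicate 2 and, within wild-type, in replicate 2. *GRMZM5G815128* had 0.144, 0.910 and 0.136 CPM in wild-type, 0.693 CPM in replicate 3 and 5.81, 13.8 and 6.51 CPM in replicates 1, 2 and 4. *GRMZM5G851655* had 0.168, 0.803 and 0.214 CPM in wild-type, 0.649 CPM in replicate 3 and 5.06, 10.9 and 5.61 CPM in the raised pools. The fitted log2 fold changes of these 3 genes, 3.28, 3.98 and 3.72 over all pools, were the largest of the group, and whether they share reads was not tested.

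Other transporters were raised by less. *GRMZM2G022642*, annotated as *BAT1*, an amino acid permease that in Arabidopsis moves amino acids in both directions, had 10.5, 6.55 and 5.14 CPM in wild-type, 10.1 CPM in replicate 3 and 16.8, 20.3 and 25.9 CPM in replicates 1, 2 and 4. *NBCS8* (*GRMZM2G068220*), closest to the Arabidopsis purine permease *AZG2*, had between 1.96 and 3.23 CPM in wild-type, 3.02 CPM in replicate 3 and between 5.78 and 7.49 CPM in the raised pools. *GRMZM2G057616*, annotated as the anion channel *CLC-b*, had between 0.551 and 1.52 CPM in wild-type, 1.36 CPM in replicate 3 and between 2.77 and 3.04 CPM in the others. *GRMZM2G470075*, annotated as *DETOXIFICATION 40*, a member of the MATE family of efflux carriers, had 0.940 CPM in replicate 3 and between 1.57 and 1.81 CPM in the raised pools. For *NBCS8*, *CLC-b* and *DETOXIFICATION 40*, too, the highest wild-type pool was replicate 2.

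Transcription factors of several families were members. *ZmGRAS48* (*GRMZM2G018254*), of the GRAS family to which the HAIRY MERISTEM and DELLA proteins belong, had 0.360, 0.375 and 0.330 CPM in wild-type and 0.336 CPM in replicate 3, and 1.15, 2.54 and 1.73 CPM in replicates 1, 2 and 4. Its wild-type pools and replicate 3 were nearly equal, so *ZmGRAS48* was among the clearest cases of the pattern. *ZmGRF7* (*GRMZM2G098594*), of the growth-regulating factors that promote cell proliferation in young organs, had 1.77, 0.963 and 1.09 CPM in wild-type, 1.68 CPM in replicate 3 and 3.79, 4.34 and 3.70 CPM in the raised pools. *ZmTCP26* (*GRMZM2G077755*), closest to Arabidopsis *TCP14*, which promotes cell proliferation in young tissue, had between 0.264 and 0.892 CPM in wild-type, 0.693 CPM in replicate 3 and 1.67, 3.69 and 2.36 CPM in the others.

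The WRKY family, best known for defence and stress responses, had a pair of members with different profiles. *ZmWRKY101* (*GRMZM2G123387*) had 5.75, 5.03 and 5.57 CPM in wild-type, 5.64 CPM in replicate 3 and 11.3, 19.6 and 18.6 CPM in replicates 1, 2 and 4. *ZmWRKY45* (*GRMZM2G151444*) had 0.815, 2.02 and 1.05 CPM in wild-type, 1.52 CPM in replicate 3 and 6.94, 5.71 and 3.46 CPM in the raised pools. *ZmWRKY101* was thus highest in replicates 2 and 4, and *ZmWRKY45* in replicates 1 and 2. *GRMZM2G028046*, annotated as a C2H2-like zinc finger protein, had 0.805 CPM in replicate 3 and between 1.65 and 2.21 CPM in the raised pools.

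**Figure D4:**
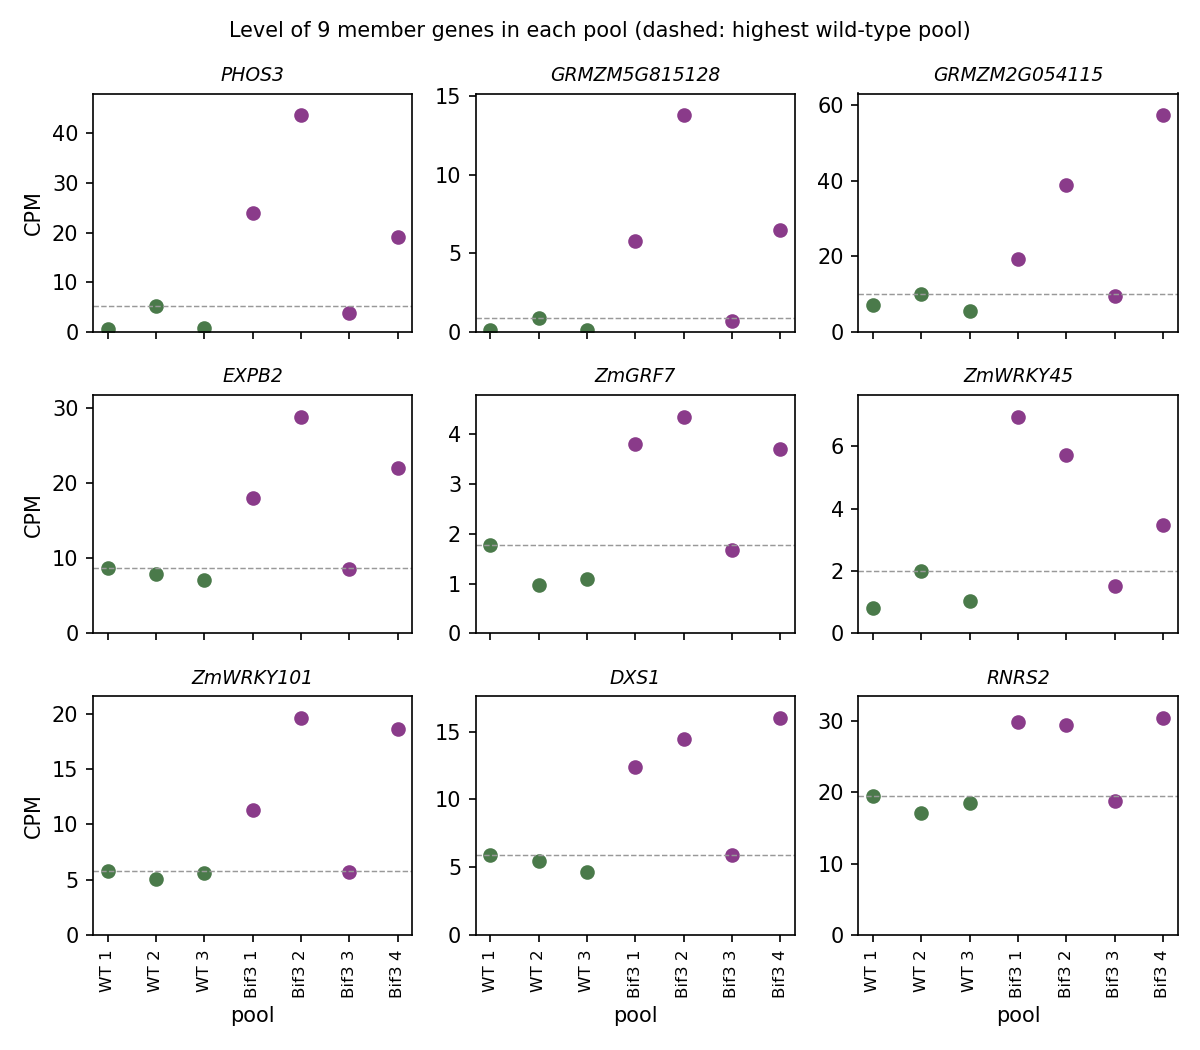
CPM of 9 member genes in each pool, with a dashed line at the highest wild-type pool; green points are wild-type pools and purple points *Bif3/Bif3* pools. In every panel replicate 3 lies at or below the line and the other *Bif3/Bif3* pools lie above it, which is what the rule asked, while the order of the raised pools differs between genes.

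The hormone-related members were few. *GRMZM2G054115*, annotated as tryptophan aminotransferase-related protein 4, of a family whose best known members act in auxin synthesis, had 7.09, 9.95 and 5.53 CPM in wild-type and 9.55 CPM in replicate 3. In replicates 1, 2 and 4 it had 19.2, 38.8 and 57.3 CPM, so that its raised pools were far apart. *GRMZM2G156127*, annotated as cytokinin-N-glucosyltransferase 1, an enzyme class that inactivates cytokinins, had 0.551, 0.999 and 0.233 CPM in wild-type, 0.872 CPM in replicate 3 and between 1.75 and 2.26 CPM in the raised pools.

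In metabolism, *DXS1* (*GRMZM2G137151*), the first enzyme of the plastid isoprenoid pathway, had 5.92, 5.48 and 4.62 CPM in wild-type and 5.88 CPM in replicate 3. *DXS1* had 12.4, 14.4 and 16.0 CPM in replicates 1, 2 and 4, close to each other. *HPL1* (*GRMZM6G986387*), named as a hydroperoxide lyase, which cleaves lipid hydroperoxides into volatile aldehydes, had 2.30 CPM in replicate 3, between 1.46 and 2.58 CPM in wild-type and between 5.37 and 7.97 CPM in the raised pools. *PAL5* (*GRMZM2G081582*), a phenylalanine ammonia-lyase at the entry to phenylpropanoid synthesis, had 0.767, 0.428 and 0.233 CPM in wild-type, 0.716 CPM in replicate 3 and 1.20, 3.10 and 2.28 CPM in the raised pools. *GRMZM2G089528*, annotated as a cytochrome P450 of family CYP706, had 1.66 CPM in replicate 3 and between 2.80 and 4.31 CPM in the raised pools.

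At the cell wall and surface, *EXPB2* (*GRMZM2G021621*), a beta-expansin of the class that loosens grass cell walls, had 8.68, 7.88 and 7.16 CPM in wild-type and 8.55 CPM in replicate 3, against 18.0, 28.9 and 22.1 CPM in replicates 1, 2 and 4. *GRMZM2G075884*, annotated as an L-type lectin receptor kinase, had 0.264, 0.446 and 0.524 CPM in wild-type, 0.470 CPM in replicate 3 and 1.44, 2.39 and 3.64 CPM in the raised pools. The subtilisin-like protease *GRMZM2G429842* had 1.66 CPM in replicate 3 and between 2.99 and 4.78 CPM in the raised pools.

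Genes of nucleic acid metabolism were also found. *RNRS2* (*GRMZM2G155546*), the small chain of ribonucleotide reductase, which makes the building blocks for DNA replication, had 19.4, 17.2 and 18.5 CPM in wild-type and 18.7 CPM in replicate 3. In replicates 1, 2 and 4 *RNRS2* had 29.9, 29.4 and 30.4 CPM, a step of 1.63 times the wild-type mean that was nearly identical in the 3 pools. *GRMZM2G127846*, annotated as an exonuclease family protein, had 5.63, 6.30 and 4.91 CPM in wild-type, 5.75 CPM in replicate 3 and 19.3, 25.2 and 12.7 CPM in the raised pools. *GRMZM2G091652*, annotated as a DEAD-box RNA helicase, had 0.626 CPM in replicate 3 and between 1.28 and 1.84 CPM in the others.

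Further members of high level carried annotations of uncertain role. *GRMZM2G151992*, annotated as a hydrolase, had between 9.67 and 16.1 CPM in wild-type, 14.5 CPM in replicate 3 and between 26.4 and 33.4 CPM in the raised pools. *AC213463.3_FG009*, annotated as *UPSTREAM OF FLC*, had 11.6, 7.58 and 6.21 CPM in wild-type, 11.4 CPM in replicate 3 and 19.8, 18.8 and 17.9 CPM in the others. *GRMZM2G002147*, with armadillo repeats, had between 13.1 and 15.2 CPM in wild-type, 15.2 CPM in replicate 3 and between 23.0 and 24.0 CPM in the raised pools. *GRMZM2G064852*, with a C2 calcium-binding domain, had between 7.36 and 8.79 CPM in wild-type and 8.68 CPM in replicate 3, against between 14.1 and 18.8 CPM. In all 4 the step was between 1.68 and 2.22 times the wild-type mean.

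Among the members without a name, *GRMZM2G051005* was the member with the lowest replicate 3 relative to wild-type, at 0.134 CPM against 0.0959, 0.392 and 0.155 CPM in wild-type and 1.13, 1.93 and 1.18 CPM in the raised pools. *GRMZM2G096048* was 0.971 to 1.32 CPM in wild-type, 1.01 CPM in replicate 3 and 6.21, 5.80 and 2.18 CPM in replicates 1, 2 and 4. *GRMZM2G395114* varied widely in wild-type, with 1.61, 3.92 and 0.291 CPM, and had 2.80 CPM in replicate 3 and between 7.24 and 12.8 CPM in the raised pools.

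Families were also counted by their symbols in the RefSeq table for the maize assembly NAM-5.0, which matched 37 of the members. Of 17 WRKY genes tested, 2 were past the threshold and higher and *ZmWRKY45* met the rule, where 3.39% of all 40650 tested genes were higher. *ZmWRKY101* carried no WRKY symbol in that table and is not among the 17. Of 18 genes with a GRF symbol, which include 14-3-3 genes of the same abbreviation, 4 were higher and *ZmGRF7* alone met the rule. Of 9 expansin genes, 3 were higher, and *EXPB2* alone met the rule. *expB8* (*GRMZM2G013002*) had the same kind of profile as *EXPB2*, with 41.7, 33.7 and 19.0 CPM in wild-type, 32.3 CPM in replicate 3 and 85.1, 98.8 and 51.8 CPM in replicates 1, 2 and 4, and missed the rule through replicate 4. Of 46 MYB, 45 bHLH, 18 MADS and 22 SBP genes matched by symbol, no gene met the rule. Past the threshold, 2 MYB, 4 bHLH, 2 MADS and 5 SBP genes were higher, and 2 MYB genes and 1 bHLH gene were lower. Over all 40650 tested genes 58 met the rule, so the lists are too short for their numbers of members to be read. The 7 TCP genes matched did not include *ZmTCP26*, which has no TCP symbol in that table, and none of the 7 met the rule. The median log2 fold change was 0.18 in the WRKY list, 0.27 in the GRF list and 0.92 in the expansin list. Over all 40650 tested genes it was -0.01.

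Gene order was read over the 16465 tested genes that could be placed in NAM-5.0, so distances leave out the tested genes without a place. The 37 members placed lay on 9 chromosomes, with between 3 and 5 on each, and 1 pair was within 20 placed genes of each other. The number of such pairs among genes taken at random was not computed. *ZmGRAS48* and *GRMZM2G058868* of this pair were direct neighbours among the placed genes. *GRMZM2G058868* had between 1.20 and 1.59 CPM in wild-type, 1.32 CPM in replicate 3 and 4.40, 6.14 and 2.50 CPM in replicates 1, 2 and 4, so both had their highest level in replicate 2 but differed in replicate 4. The member nearest to *ZmWUS1* was 42 placed genes away.

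The rule fixed neither the order of the wild-type pools nor that of the raised pools. The highest wild-type pool was replicate 2 for 29 members (50.0%), replicate 1 for 23 and replicate 3 for 6. Over the 21640 genes with a mean of at least 1 CPM, wild-type replicate 2 was highest for 30.9%, and over the 215 genes raised in all 4 *Bif3/Bif3* pools for 30.7%. Among the raised pools, replicate 2 was highest for 31 members (53.4%), against 28.1% of all these genes and 46.5% of the 215. The wild-type pools also spread more for the members, with a median ratio of the highest to the lowest pool of 1.79, against 1.20 over all and 1.38 over the 215. A high wild-type pool raises the limit for replicate 3, so part of these differences follows from the rule. Within the limit, replicate 3 was above the wild-type mean for 48 of the 58 members (82.8%) and below the lowest wild-type pool for 4 (6.90%). Over the 21640 genes these shares were 50.9% and 21.6%, and the rule's upper limit on replicate 3 set no lower one.

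Markers of tissue also varied along with the pools. *ZYB15* (*GRMZM2G529859*), a YABBY gene used as a marker of suppressed bracts, had 58.4 CPM in wild-type replicate 2 and 20.9 and 31.9 CPM in wild-type replicates 1 and 3. In *Bif3/Bif3* it had 56.6 and 48.4 CPM in replicates 1 and 2 and 28.9 and 25.8 CPM in replicates 3 and 4. The 8 YABBY genes together had 43.6, 150.1 and 71.0 CPM in wild-type and 122, 108, 68.9 and 59.3 CPM in *Bif3/Bif3*. Photosynthesis genes, markers of green tissue such as husk leaves, were near zero in every pool. The 12 of them summed to 1.32, 4.76 and 1.01 CPM in wild-type, 1.30 CPM in replicate 3 and 5.11, 4.65 and 1.95 CPM in replicates 1, 2 and 4, and none reached a mean of 1 CPM. Both lists were thus high in wild-type replicate 2 and in *Bif3/Bif3* replicates 1 and 2 and low in replicate 3, but replicate 4, where the members were raised, was low too. Their part in the pattern was not tested.

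**Figure D5:**
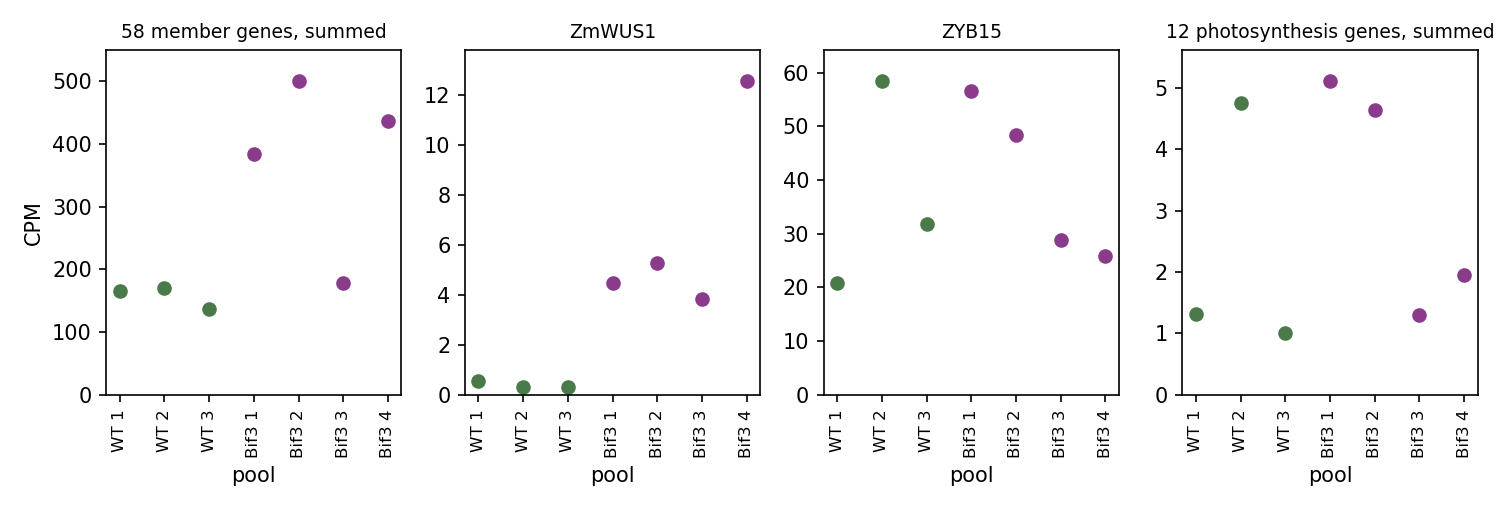
CPM in each pool, summed over the 58 members, of *ZmWUS1*, of *ZYB15* and summed over 12 photosynthesis genes; green points are wild-type pools and purple points *Bif3/Bif3* pools. The members were low in replicate 3, at 178 CPM, where *ZmWUS1* was raised, and *ZYB15* and the photosynthesis genes followed neither pattern.

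Meristem markers differed in whether they followed the members. *TD1* (*GRMZM2G300133*), a CLAVATA-type receptor, had 15.5, 9.17 and 10.4 CPM in wild-type, 14.4 CPM in replicate 3 and 20.6, 21.1 and 42.0 CPM in replicates 1, 2 and 4. *TD1* and *KN1* were thus within the wild-type range in replicate 3 and above it in the other *Bif3/Bif3* pools, although both missed the limit of 1.5 times. Both were highest in replicate 4, where the summed members were highest in replicate 2. Their part in the pattern was not tested. Of the 11 markers, replicate 3 was above the wild-type range for 3, below it for 5 and within it for *KN1*, *TD1* and *ZYB15*. Over the 21640 genes, replicate 3 was outside the wild-type range for 47.5%. *BA1* (*GRMZM2G397518*), needed for axillary meristem initiation, had 13.7 CPM in replicate 3, below every wild-type pool (16.5 to 29.6 CPM) and above the other *Bif3/Bif3* pools (8.86 to 12.1 CPM). *ZmCLE7* (*GRMZM2G372364*), a gene for a CLAVATA3-type peptide, had 2.86 CPM in replicate 3, above every wild-type pool (0.624 to 1.08 CPM).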

How the data were processed

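Counts per gene from 7 RNA-seq libraries of ear primordia were used. By the paper's account, reads were cleaned with Trimmomatic, HISAT 2.1.0 placed them on version 3 of the B73 genome, and HTSeq-count gave the counts. The submitters' processing notes name TopHat2 2.1.1, Cuffdiff and edgeR instead, and which aligner made the table was not settled. The library kit was stranded, and the strand setting of the counting is not given in the sources used here, so paralogs and overlapping genes are uncertain. The deposited values are read counts without normalization, and all 7 columns were assigned by title. CPM of the members used the library size, and is not corrected for gene length. Reads are not independent molecules, and limits from counts cover counting error only.

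In R 4.3.3, the 40650 genes with at least 2 counts over all pools were fitted with edgeR 4.0.16 (TMM, quasi-likelihood fit of earlier versions). The threshold was p under 0.05, Benjamini-Hochberg adjusted p under 0.1 and fold change over 1.5. The fit was tested on simulated data. Positions used TMM-scaled CPM plus 0.5.

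The members and lists were chosen with earlier results of these data known. Genes named were to be the 10 with the largest ratio of lowest raised to highest wild-type pool, the 10 of highest mean CPM, those in word lists and those nearest the limits. Other members, *expB8* and the remaining markers were named after their values were seen. Word lists became symbol families, since the RefSeq table holds no descriptions. Promoter motifs were not analysed here and no sequence is printed. Alternatives were DESeq2 1.42.0, other scalings, filters, limits of the rule, a replicate block and each pool left out.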

Additional observations from a re-analysis of the deposited data

Results flagged for a closer look

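In 6 members the 4 *Bif3/Bif3* pools held a value far from the others, with replicate 3 the lowest in each. The gap between replicate 3 and the next pool was 0.915 of the range of the 4 pools for *GRMZM2G359018*, 0.911 for *RNRS2* (*GRMZM2G155546*), 0.893 for *GRMZM2G173280*, 0.892 for *GRMZM2G002147*, 0.848 for *GRMZM2G081949* and 0.841 for *GRMZM2G057616*, each above Dixon's critical value for 4 samples. The rule set replicate 3 apart from the raised pools, so passing this limit is not a test of the members. Nothing is read from their share of 10.3%. Over the 21640 genes with a mean of at least 1 CPM, 5.05% were past the same limit in either direction, and chance flags about 5%.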

How the results depend on the processing

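The number of members followed the limits of the rule. From 58 it went to 170 at 25% above and 12 at 2 times the highest wild-type pool, to 33 with at least 2 CPM, to 10 with replicate 3 at or below the wild-type mean and to 207 with replicate 3 allowed up to 25% above the highest wild-type pool. With TMM-scaled library sizes it was 51, of which 49 were members. Leaving out a pool gave between 51 and 310 genes, with 310 without *Bif3/Bif3* replicate 4 and 96 without *Bif3/Bif3* replicate 1. Without a raised *Bif3/Bif3* pool the rule asks for less, so all 58 members stayed. Without wild-type replicates 1, 2 and 3 there were 55, 51 and 57 genes, of which 40, 36 and 55 were members. Membership thus depended in part on a single high wild-type pool. The number past the threshold ranged from 0 to 57 with a pool left out and was 11 at an adjusted p under 0.05, 25 with the quasi-likelihood fit of edgeR 4 and 48 with DESeq2. Over all genes, 1380 were higher and 243 lower, and the numbers with the fit of edgeR 4 and with DESeq2 are not given here. With a pool left out these ranged from 687 to 1817 and from 114 to 327, at an adjusted p under 0.05 they were 891 and 137, and without a limit on fold change 670 were lower. With the replicate number as a block, 45 members, 1994 higher and 394 lower genes were past the threshold. Samples with the same number shared no source in the labels, and their deviations correlated at -0.02, 0.49 and 0.27 for numbers 1, 2 and 3, so the numbers were not taken as pairs. Under library-size scaling, a filter on low counts, the fit of edgeR 4, DESeq2 and without the members, all chosen after seeing the data, the position of replicate 3 was between 0.486 and 0.503. No log2 fold change of a member changed sign in its 14 alternatives. The rule put the raised pools above every wild-type pool and so largely fixed the sign, and nothing is read from this. For all 34 members that were called, the call was lost in at least 1 alternative. Low counts limit the members under 5 CPM most.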
